A study of Ovis aries with 6 samples.

Results

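The genes described here encode the proteins of the cytosolic ribosome, measured in the somatic cells of sheep milk, the epithelial and immune cells that are shed into milk. They were chosen by symbol: RPL or RPS followed by a digit, RPLP0 to RPLP2, or RPSA, without the RPS6K kinases. Of 82 such symbols in the gene table used for names, 67 were matched to transcripts of the deposited table, which holds 49705 transcripts in all. Each gene was represented by its transcript of highest mean level. The other 15, among them RPLP0, RPL5 and RPL22, are not analysed here. The pattern also takes RPS19BP1, a protein that binds RPS19, and RPL7L1, a relative of RPL7. Neither is a subunit of the mature ribosome, and they are kept apart from the subunit counts.

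There were 3 linseed libraries and 3 control libraries, from the same 3 Comisana ewes, which the labels put at 90 days of lactation without a day for each sampling. The linseed group had eaten a concentrate with 20% extruded linseed (dry matter basis) for 3 weeks, and the control group was the same ewes in an earlier period of 3 weeks on hay and concentrate without it. Every ewe received linseed second, so diet and time cannot be told apart, and 3 animals of 1 breed limit what the comparison covers. RNA came from cells pelleted from 250 ml of milk, and the labels name no sorting of the cells. Libraries held 4941935, 5978026 and 19912996 reads in linseed sheep 1, 2 and 3, against 22644050, 8805705 and 10602801 in control sheep 1, 2 and 3, as solved from the steps between low values.

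A ribosome is built from a small subunit, which reads the messenger RNA, and a large subunit, which joins amino acids, each made of ribosomal RNA and a set of proteins mostly present once. The mRNAs of these proteins are short and abundant, and begin with a pyrimidine tract (a TOP motif) through which mTORC1 and LARP1 set their translation together. In the lactating gland, ribosomes carry the synthesis of milk proteins, and immune cells in milk carry their own. Levels below are RPKM, reads per kilobase of transcript scaled to the size of the library, so values of different genes are compared per length.

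In sheep 1, 2 and 3, these 67 genes together held 18.6%, 16.1% and 15.2% of the summed RPKM with linseed, against 4.96%, 13.3% and 12.01% on the control diet. The linseed libraries all lay above the control libraries, with means of 16.6 ± 1.78% with linseed and 10.1 ± 4.47% on the control diet (SD, n = 3 each). The difference of 6.55 points was uneven: it was 13.6 points in sheep 1, 2.84 points in sheep 2 and 3.15 points in sheep 3, and it came to 3.00 points without sheep 1 and 3.99 points without the control library of sheep 1 alone. The median ribosomal protein gene stood at 2811, 2140 and 1580 RPKM in linseed sheep 1, 2 and 3, against 589, 1714 and 1001 RPKM in the same sheep on the control diet. In these bulk samples, fewer cells of a type and less RNA per cell cannot be told apart.

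Of the 67 genes, 63 passed a filter of a mean of at least 1 RPKM. Among these, 40 were higher with linseed in each of the 3 sheep, where 23.0% of all 15891 tested transcripts were, and 1, RPL23, was lower in each sheep, where 26.2% of all tested transcripts were. In 22 genes the linseed libraries all lay above the control libraries (13.3% of all tested transcripts), and in 0 did they all lie below (7.83% of all tested). A log2 change is the mean of log2(RPKM + 1) in linseed libraries minus that in control libraries. Its median over the 63 genes was 0.98, with quartiles at 0.59 and 1.49, against -0.12 over all tested transcripts, and 61 of the 63 were above 0. The summed RPKM of a library was itself higher with linseed in each sheep. It was 1052490, 929461 and 716684 in linseed sheep 1, 2 and 3, against 812839, 880619 and 563857 on the control diet. Rescaled to equal sums, the median was 0.71, against -0.32 over all tested transcripts, and 55 of the 63 were above 0. Under quantile normalization the median was 0.20, against -0.04 over all tested transcripts, and 40 of the 63 were above 0. On the RPKM scale as deposited, the median was 2.11 in sheep 1, 0.19 in sheep 2 and 0.74 in sheep 3. Without sheep 1 the median change was 0.46.

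No single gene passed the test. With limma across all tested transcripts and Benjamini-Hochberg adjustment, 0 of 63 genes were called at an adjusted p under 0.05 (0.0% of all tested in either direction), and the smallest adjusted p among them was 0.263. At an unadjusted p under 0.05, limma gave 20 genes higher with linseed, where 8.5% of all tested transcripts were, and 0 lower, where 7.0% were. That number of genes, in either direction, was 5 with milk proteins left out, 8 to 11 under the median-of-ratios, quantile, equal-sum and length settings, and, with single libraries left out, from 3 without linseed sheep 1 to 36 without control sheep 2. With the sheep as a block, 0 genes were called either (1.28% of all tested were called higher and 1.34% lower), and the smallest adjusted p was 0.0585, for RPL28. On recovered reads, voom with limma called 0 genes, with 13 at an unadjusted p under 0.05. The changes below are therefore given as values with their standard errors, and none of them is a call.

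**Figure D1:**
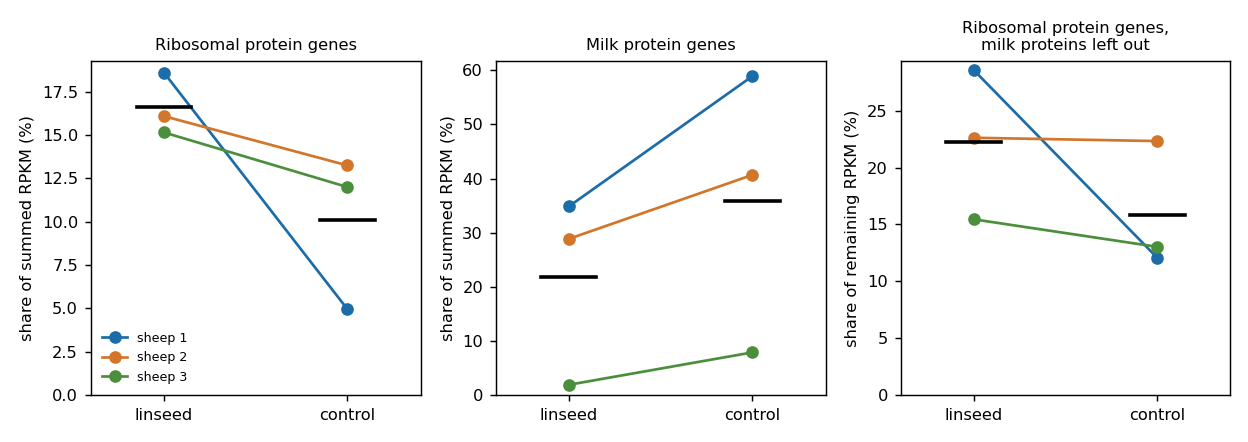
Share of each library's summed RPKM (%) held by the ribosomal protein genes (left), by milk protein genes (middle), and by the ribosomal protein genes once milk proteins are left out of the sum (right). Points are libraries, lines join the libraries of a sheep and black bars are group means; the ribosomal protein share was 18.6% with linseed and 4.96% on the control diet in sheep 1, and the difference between diets was smaller in sheep 2 and 3 (2.84 and 3.15 points).

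Milk protein genes together had a lower share with linseed in each sheep, but they did not all move alike. Of 11 tested, 7 were lower in each sheep and 0 higher (26.2% and 23.0% of all tested transcripts). PAEP had 268127, 140693 and 4634 RPKM with linseed, against 64305.5, 51089 and 9885 RPKM on the control diet, so it was higher in sheep 1 and 2. The milk protein genes held 34.9%, 28.9% and 1.88% of the summed RPKM in linseed sheep 1, 2 and 3, against 58.9%, 40.6% and 7.85% on the control diet. With milk proteins left out of the sum, the ribosomal protein share was 28.6%, 22.6% and 15.4% with linseed, against 12.1%, 22.3% and 13.03% on the control diet. These ranges overlap, and sheep 2 differed by 0.29 points. The median change of the 63 genes was 0.64 when the library total left out milk proteins, against -0.33 for all tested transcripts under that scaling.

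Marker lists of the cell types shed into milk are given beside this, and limma called none of their genes with or without the block (smallest adjusted p = 0.0510 with it). The summed RPKM of the 6 matched epithelial markers ran from 4738 to 79357 in linseed libraries, against 17715 to 266284 in control libraries, and 4 of the 6 were lower with linseed in each sheep and 0 higher. Nearly all of that sum is the milk protein genes CSN2, CSN3 and LALBA. The keratin KRT8 had 355, 500 and 21.3 RPKM with linseed, against 17.6, 98.6 and 54.5 RPKM on the control diet, higher in sheep 1 and 2 and lower in sheep 3. The 5 neutrophil markers summed to between 2314 and 3187 RPKM with linseed, against 422 to 954 on the control diet, with 4 of 5 higher in each sheep. Most of that sum was S100A8 and S100A9 in every library. FCGR3A, lower with linseed in sheep 2 and 3, had 6.50, 6.28 and 170 RPKM with linseed, against 2.05, 9.03 and 185 RPKM on the control diet. The 7 macrophage markers, mostly CD68 by RPKM, summed to 615 to 1338 RPKM with linseed, against 97.1 to 642 on the control diet. Of them, 3 were higher and 2 lower in each sheep. The 7 T and NK cell markers, mostly GNLY and CD3E by RPKM, summed to 236 to 623 RPKM with linseed, against 14.4 to 1026 on the control diet. Of them, 0 were higher and 2 lower in each sheep. B and plasma cell markers, 7 matched and 4 tested, summed to 7.38 to 28.6 RPKM with linseed, against 1.27 to 25.8 on the control diet. The 1 erythrocyte marker matched was listed at 0 in all 6 libraries. Over all tested transcripts, 23.0% were higher in each sheep and 26.2% lower. The part of cell composition in the ribosomal protein result was not tested.

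The large subunit had 37 tested proteins, of which 24 were higher with linseed in each sheep and 1 was lower, with a median change of 0.98. With RPL7L1 counted as well, the median level was 1959, 1693 and 1450 RPKM in linseed sheep 1, 2 and 3. It was 551, 1511 and 819 RPKM in control sheep 1, 2 and 3. The small subunit had 24 tested proteins, with 15 higher in each sheep, 0 lower and a median change of 0.94. With RPS19BP1 counted as well, the median level was 2882, 2827 and 2039 RPKM with linseed, against 797, 1927 and 1268 RPKM on the control diet. The median changes of the subunits lay close together, while the median level was higher for the small subunit in every library. Neither difference was tested.

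**Figure D2:**
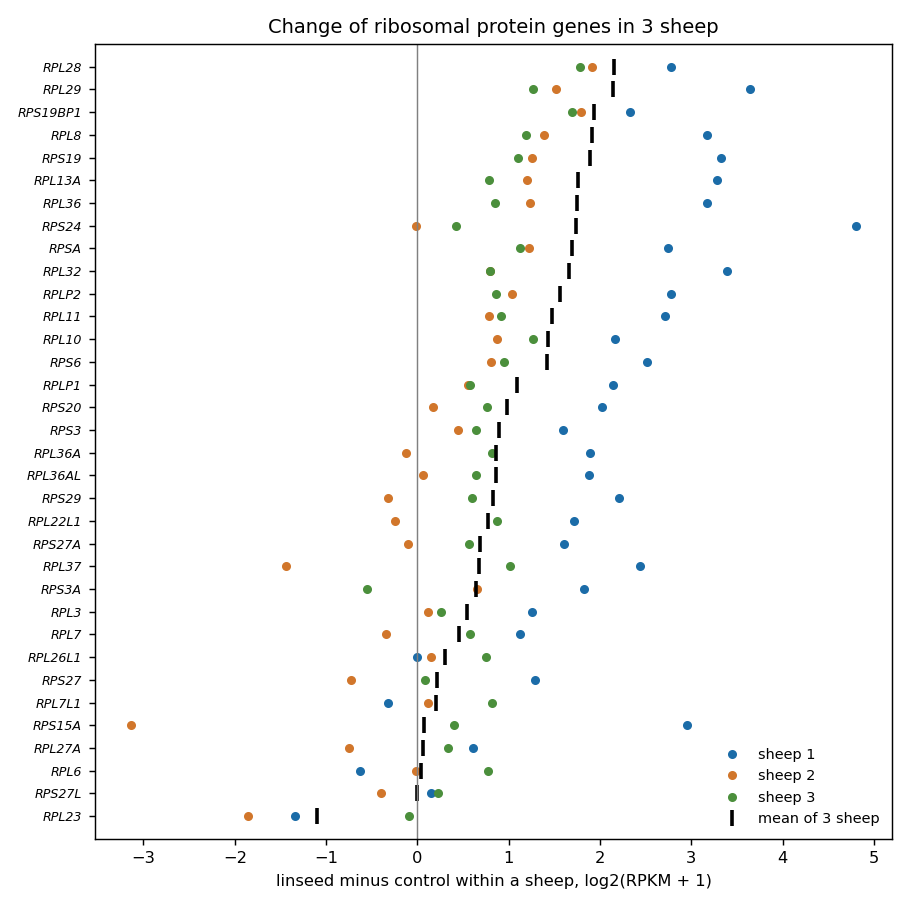
Linseed minus control difference within each sheep, in log2(RPKM + 1), for the tested genes described in the text, ordered by the mean of the 3 sheep (black bars; points are sheep). Sheep 1 lies farthest to the right for most genes, and RPL23 at the bottom is the gene with every sheep below 0.

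Among large-subunit proteins, RPL28 (XM_004015421.2), found in eukaryotic ribosomes and not in bacterial ones, had 607, 227 and 194 RPKM in linseed sheep 1, 2 and 3, against 87.8, 59.6 and 55.9 RPKM on the control diet. Every linseed library lay above every control library, and the change of 2.15 ± 0.64 (SE) was the highest of the 63. The 3 sheep were closer to one another here than for most members, at 2.78, 1.91 and 1.78. A second RPL28 transcript (XM_004015420.2) changed by 1.48 ± 0.69, with 280, 170 and 77.2 RPKM in linseed libraries and 32.5, 92.2 and 54.9 RPKM in control libraries; for it the groups overlapped.

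RPL29 (XM_004018410.2), a small basic protein of the eukaryotic large subunit, had 4451, 3068 and 1580 RPKM with linseed, against 357, 1072 and 658 RPKM on the control diet. Its groups did not overlap, and its change was 2.14 ± 0.67, with 3.64 in sheep 1, 1.52 in sheep 2 and 1.26 in sheep 3. RPL8 (XM_004011587.3), a conserved protein close to the peptidyl transferase centre, had 5301, 3765 and 1896 RPKM with linseed, against 589, 1443 and 829 RPKM on the control diet. Again no control library reached a linseed library, and the change was 1.91 ± 0.65.

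RPL13A (XM_012190698.1), which in human myeloid cells is also released from the ribosome on interferon-gamma signalling to block translation of selected mRNAs, had 11049, 6424 and 3328 RPKM with linseed, against 1133, 2795 and 1936 RPKM on the control diet. By mean level it ranked 3 of 67 with linseed and 9 on the control diet. RPL36 (XM_004008585.3) had 4519, 3166 and 1544 RPKM with linseed, against 501, 1348 and 854 RPKM on the control diet. The changes were 1.76 ± 0.66 for RPL13A and 1.75 ± 0.66 for RPL36, both without overlap of the groups. RPL32 (XM_004018540.2) changed by 1.66 ± 0.70, but its lowest linseed library, at 2164 RPKM, lay below the highest control library, at 2353 RPKM.

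RPL11 (XM_015093687.1) binds 5S ribosomal RNA with RPL5 and, when free of the ribosome, inhibits the p53 ligase MDM2. It had 4439, 3545 and 2191 RPKM with linseed, against 678, 2054 and 1162 RPKM on the control diet, and changed by 1.47 ± 0.64 with no overlap. RPL10 (NM_001112820.1), which joins the large subunit late in its assembly, had 1714, 1999 and 1537 RPKM with linseed, against 381, 1091 and 640 RPKM on the control diet. Its linseed libraries were close together and all above the control libraries, and its change was 1.43 ± 0.61. RPL3 (XM_004006999.2), a protein near the catalytic centre, sat at 1212, 1316 and 1383 RPKM with linseed, against 509, 1217 and 1158 RPKM on the control diet, where the groups overlapped and the change was 0.54 ± 0.60.

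The acidic proteins RPLP1 and RPLP2 form the stalk that recruits elongation factors, with RPLP0 as its base. RPLP1 (XM_004010270.3) was the most abundant of the 67 in both groups by mean, with 11714, 7244 and 4952 RPKM in linseed sheep 1, 2 and 3, against 2657, 4923 and 3333 RPKM on the control diet. Its lowest linseed library stood just above its highest control library, and the change was 1.09 ± 0.60. RPLP2 (XM_004023349.3) had 4281, 3216 and 2003 RPKM with linseed, against 621, 1574 and 1100 RPKM on the control diet, a change of 1.56 ± 0.63 without overlap.

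**Figure D3:**
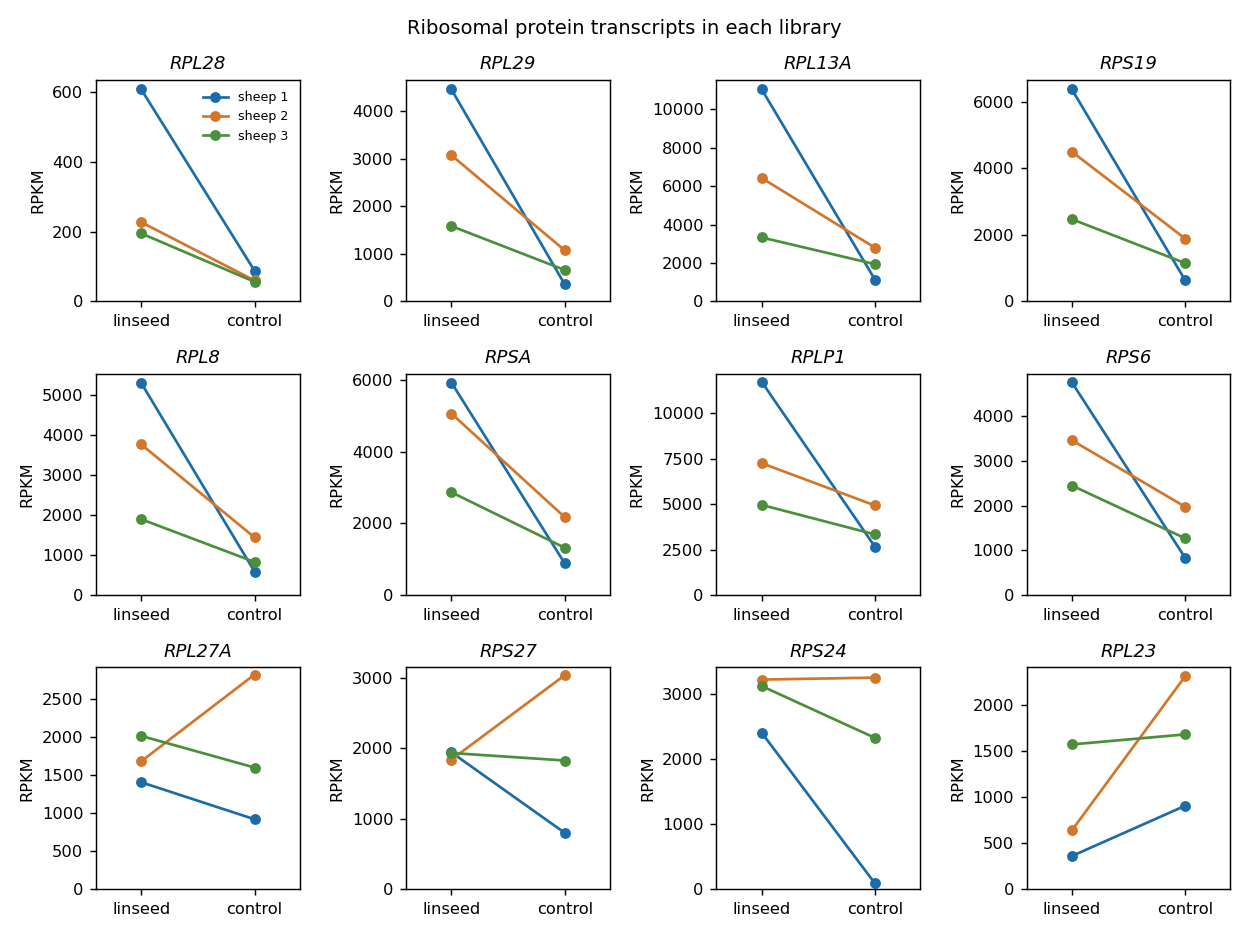
RPKM of 12 ribosomal protein transcripts in each library (linear axes from 0, linseed left of control, a line for each sheep). In the first 8 panels every line falls toward the control diet, RPL27A and RPS27 are higher on the control diet in sheep 2, the RPS24 control library of sheep 1 stands at 85.2 RPKM, and RPL23 runs the other way.

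Among small-subunit proteins, RPS19 (XM_004015294.2), whose loss of 1 copy causes Diamond-Blackfan anaemia in humans, had 6368, 4494 and 2466 RPKM with linseed, against 633, 1884 and 1147 RPKM on the control diet. Its change was 1.90 ± 0.66, without overlap, and its rank by mean level was 7 of 67 with linseed and 28 on the control diet. RPSA (NM_001105263.1), also known as the laminin receptor, had 5923, 5059 and 2866 RPKM with linseed, against 884, 2172 and 1320 RPKM on the control diet, and changed by 1.69 ± 0.62.

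RPS6 (XM_004004394.3), the ribosomal substrate of S6 kinases, had 4752, 3459 and 2448 RPKM with linseed, against 832, 1973 and 1268 RPKM on the control diet. The linseed libraries all lay higher and the change was 1.42 ± 0.61. RPS3 (XM_004016328.3), which lines the mRNA entry channel, had 2642, 2600 and 2286 RPKM with linseed, against 873, 1905 and 1467 RPKM on the control diet, and changed by 0.90 ± 0.58. For RPS3 the groups were apart as well.

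RPS20 and RPS29, both of the small subunit's head, were among the 5 most abundant genes by the mean over all libraries. RPS20 (XM_004011685.2) had 6100, 5043 and 3438 RPKM with linseed, against 1498, 4465 and 2034 RPKM on the control diet, and RPS29 (XM_004010496.3) had 4454, 3639 and 3212 RPKM with linseed, against 963, 4553 and 2120 RPKM on the control diet. Control sheep 2 lay within the linseed range for RPS20 and above it for RPS29, and the changes were 0.99 ± 0.63 for RPS20 and 0.83 ± 0.67 for RPS29. RPS27A (XM_004005944.3), made as a fusion with ubiquitin, had 2882, 2539 and 1936 RPKM with linseed, against 946, 2732 and 1309 RPKM on the control diet, an overlap again, and changed by 0.69 ± 0.62.

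In a few genes single libraries stood far from the rest. RPS24 (XM_004021507.2) had 2409, 3228 and 3128 RPKM with linseed, against 85.2, 3258 and 2329 RPKM on the control diet. The library of control sheep 1 stood far below the others, on 1138 reads, and the differences were 4.81 in sheep 1, -0.01 in sheep 2 and 0.43 in sheep 3. RPS15A (XM_004020793.3) had 1080 RPKM in linseed sheep 1 and 139 RPKM in control sheep 1, but 173 RPKM in linseed sheep 2 and 1529 RPKM in control sheep 2. Its differences of 2.95 in sheep 1, -3.14 in sheep 2 and 0.40 in sheep 3 left a mean of 0.07 ± 0.93. RPL37 (XM_004017021.2) also differed between sheep, at 2.44, -1.44 and 1.01 in sheep 1, 2 and 3. These 3 genes were singled out after their values were seen.

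RPL23 (XM_012186016.2), a large-subunit protein at the face that meets the small subunit, was the exception to the common direction. It had 357, 636 and 1570 RPKM in linseed sheep 1, 2 and 3, against 903, 2310 and 1679 RPKM on the control diet. The groups overlapped, since linseed sheep 3 lay above control sheep 1, but each sheep was lower with linseed, by -1.34, -1.86 and -0.10 on the log2 scale. The change was -1.10 ± 0.70 (adjusted p = 0.448 with limma). RPL23 made up 0.182%, 0.425% and 1.45% of the summed RPKM of the 67 genes with linseed, against 2.24%, 1.98% and 2.48% on the control diet, so its share was lower in each linseed library than in any control library.

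At the other low end, RPL27A (XM_004023015.3) had 1405, 1681 and 2016 RPKM with linseed, against 918, 2824 and 1599 RPKM on the control diet, a change of 0.07 ± 0.62. RPL6 (XM_012097889.1) had 276, 883 and 933 RPKM with linseed, against 426, 892 and 547 RPKM on the control diet, a change of 0.04 ± 0.68. In both, sheep went in different directions and the groups overlapped. By the mean of a group, RPL27A ranked 39 of 67 with linseed and 12 on the control diet, and RPL23 ranked 51 with linseed and 16 on the control diet.

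Several ribosomal proteins have a paralog that can take their place or acts in a particular tissue. RPL22L1 (XM_004003165.2) had 351, 297 and 320 RPKM with linseed, against 107, 352 and 175 RPKM on the control diet, and changed by 0.78 ± 0.63. RPL36AL (XM_004010497.2) changed by 0.86 ± 0.62 and its parent RPL36A (XM_004022487.2) by 0.86 ± 0.66. RPL36AL averaged 1087 RPKM with linseed and 605 RPKM on the control diet, and RPL36A averaged 1027 RPKM with linseed and 672 RPKM on the control diet, so parent and paralog were level. RPS27L (XM_004010547.2), a target of p53 in human cells, stood at 157, 153 and 157 RPKM with linseed, against 141, 202 and 134 RPKM on the control diet. Its parent RPS27 (XM_004002540.3) had 1941, 1839 and 1932 RPKM with linseed, against 797, 3038 and 1825 RPKM on the control diet, a change of 0.21 ± 0.64.

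The remaining paralogs were low. RPL26L1 (XM_012096728.1) had 6.59, 14.5 and 15.6 RPKM with linseed, against 6.63, 13.004 and 8.84 RPKM on the control diet. RPL7L1 (XM_004018825.3) had 25.4, 36.6 and 56.4 RPKM with linseed, against 32.1, 33.7 and 31.5 RPKM on the control diet, while RPL7 (XM_004011739.3) had 1663, 1540 and 1422 RPKM with linseed, against 763, 1950 and 952 RPKM on the control diet. In both the groups overlapped, with changes of 0.21 ± 0.58 for RPL7L1 and 0.45 ± 0.60 for RPL7. RPL10L, whose expression in mouse and human is centred on the testis, and RPL3L, a form of striated muscle, stood under the filter. At the smallest length that gave whole reads, RPL10L had 0 to 1 reads and RPL3L 0 to 3 reads per library. These counts may be too low by a whole factor.

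RPS25 and RPS26 also stood under the filter, with 0 to 6 reads and 0 to 3 reads per library on the transcript given. RPS3A (XM_004017202.3) passed it on 7 to 27 reads per library. The counts of RPS25 and RPS26 were solved in the same way and may likewise be too low. Near-identical processed pseudogenes of ribosomal protein genes are common in mammalian genomes, and no source used here says how reads shared with them were counted. The levels of these transcripts are therefore uncertain. RPS19BP1 (XM_004007001.3), the binding partner of RPS19 and no subunit, had 197, 146 and 91.5 RPKM with linseed, against 38.4, 41.4 and 27.6 RPKM on the control diet, and changed by 1.94 ± 0.59 without overlap.

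**Figure D4:**
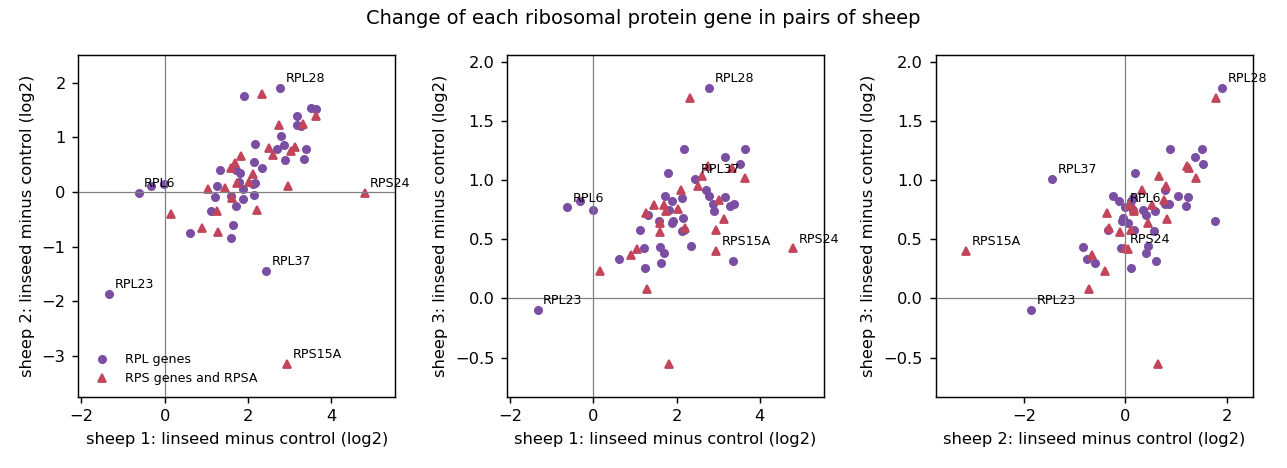
Linseed minus control difference (log2(RPKM + 1)) of each tested gene in one sheep against another, for the 3 pairs of sheep; circles are RPL genes and triangles RPS genes and RPSA. The genes form a loose rising cloud in each panel, with RPS15A, RPS24, RPL37 and RPL23 away from the rest. The correlation was r = 0.48 for sheep 1 and 2, 0.39 for sheep 1 and 3 and 0.57 for sheep 2 and 3.

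The order of the genes was largely common to the libraries. Across the 63 genes, log2 levels correlated at r = 0.92 to 0.96 between linseed libraries and at r = 0.93 to 0.98 between control libraries, and the group means of the 2 diets correlated at r = 0.95 and rho = 0.78. The changes also ran in a like order in different animals: they correlated at r = 0.48 and rho = 0.65 between sheep 1 and sheep 2, at r = 0.39 and rho = 0.48 between sheep 1 and sheep 3, and at r = 0.57 and rho = 0.63 between sheep 2 and sheep 3. These are descriptions over genes, which are not independent replicates and share libraries, depth and length. Genes of higher mean level had somewhat larger changes (r = 0.25, rho = 0.39).

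To see the genes relative to one another, each library was also scaled to the geometric mean of its 63 tested ribosomal protein genes, a setting chosen after seeing the data. On this scale 20 genes were higher with linseed in each sheep (8.04% of all tested transcripts were) and 14 were lower in each sheep (43.8% of all tested). The linseed libraries were all above the control libraries in 14 genes (3.76% of all tested) and all below in 10 (14.1% of all tested). All tested transcripts had a median change of -0.79 on this scale, so the 2 directions have unequal backgrounds, and the 63 genes are centred near 0 by construction.

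The relatively higher genes included RPL8, RPL10, RPL11, RPL13A, RPL18, RPL28, RPL29, RPL32, RPL35, RPL36 and RPLP2 of the large subunit, RPS6, RPS14, RPS15, RPS19 and RPSA of the small subunit, and RPS19BP1. The relatively lower genes included RPL3, RPL7, RPL9, RPL23, RPL27A, RPL34, RPL35A, RPL36AL and RPL38 of the large subunit and RPS13, RPS27, RPS27A and RPS27L of the small subunit. Relative to the set, RPL29 stood 1.60, 1.23 and 0.55 higher in sheep 1, 2 and 3, and RPS19 stood 1.29, 0.96 and 0.39 higher. RPL23 changed by -2.11 ± 0.60 on this scale, with -3.38, -2.15 and -0.81 in sheep 1, 2 and 3. Its adjusted p with limma was 0.223 without the sheep as a block and 0.00386 with it, which made it the 1 member called there (9.75% of all tested transcripts were called lower in that fit and 0.352% higher). The members that set this scale, RPL23 among them, are themselves among the abundant transcripts. The scale itself therefore lowers the spread among abundant transcripts, on which the p of RPL23 rests. In the blocked fit limma gave a smallest adjusted p of 7.7e-39 from 6 libraries, so its adjusted p-values cannot be taken at face value.

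Ribosomal protein mRNAs are short, and the comparison of the diets varied with length. The 63 transcripts had a median length of 623 nt (361 to 1700 nt), against 2297 nt for all tested transcripts, as solved from the RPKM values. Across all tested transcripts, the change correlated with log2 length at r = -0.32 (n = 15891). Within the 63 ribosomal protein genes the same correlation was r = 0.00 and rho = 0.06. The 926 other tested transcripts with lengths between the quartiles of the members, 523 and 806.5 nt, had a median change of 0.57, and 38.4% of them were higher with linseed in each sheep. Of these, the 159 with a mean of at least 100 RPKM included 94 transcripts (59.1%) that were higher with linseed in each sheep and 8 that were lower. In 63 of the 159 (39.6%) the linseed libraries all lay above the control libraries, against 34.9% of the 63 ribosomal protein genes. At an unadjusted p under 0.05 with limma, 51 of the 159 were higher and 3 lower, against 20 and 0 of the 63 ribosomal protein genes. Short abundant transcripts of other genes thus had a median change of 1.21, against 0.98 for the ribosomal proteins, a difference that was not tested. After a correction for length in each library, the median change of the ribosomal protein genes was 0.54, against -0.03 for all tested transcripts.

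**Figure D5:**
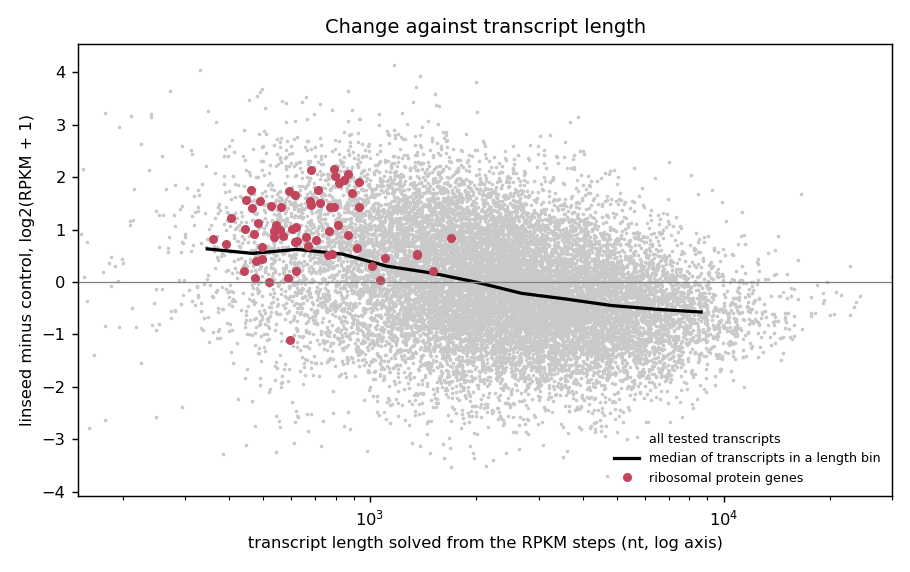
Log2 change of each tested transcript (grey) and of the 63 ribosomal protein genes (red) against transcript length (nt, log axis); the black line joins the medians of transcripts in length bins. The line falls from short to long transcripts, and most ribosomal protein genes lie at or above it between 361 and 1700 nt.

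Other mRNAs with a TOP motif, among them translation factors, were taken as a list. All 20 matched were tested, and 12 were higher with linseed in each sheep and 4 lower (23.0% and 26.2% of all tested transcripts). Their median change was 0.57 at a median transcript length of 1268.5 nt. FAU encodes a fusion of a ribosomal protein with a ubiquitin-like domain and is not taken by the symbol rule. FAU changed by 1.04 ± 0.62, and RACK1, a scaffold protein bound to the small subunit, by 0.87 ± 0.57. EEF1D, a subunit of the factor that recharges the elongation factor eEF1A, had 1205, 692 and 291 RPKM with linseed, against 192, 221 and 145 RPKM on the control diet. NPM1, a nucleolar chaperone of ribosome assembly, had 14.9, 44.6 and 79.5 RPKM with linseed, against 152, 182 and 73.9 RPKM on the control diet. The changes were 1.76 ± 0.67 for EEF1D and -1.72 ± 0.73 for NPM1. limma called 0 of the list, with 2 higher and 2 lower at an unadjusted p under 0.05 (8.5% and 7.0% of all tested transcripts).

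The factors that assemble ribosomes were taken as another list. Of 43 tested ribosome biogenesis genes, 6 were higher with linseed in each sheep and 21 lower (23.0% and 26.2% of all tested transcripts). Their median change was -0.58 at a median transcript length of 2380 nt, and 13 had a change above 0. The difference from the ribosomal proteins was not tested. SBDS, which with EFL1 releases eIF6 from new large subunits, had 5.77, 9.48 and 26.4 RPKM with linseed, against 105, 31.8 and 53.6 RPKM on the control diet. NMD3, the export adaptor of the large subunit, had 0.417, 1.49 and 4.26 RPKM with linseed, against 6.86, 4.83 and 10.4 RPKM on the control diet. NOP58, a core protein of box C/D snoRNPs, had 0.971, 4.98 and 16.9 RPKM with linseed, against 22.6, 14.99 and 27.5 RPKM on the control diet. SBDS and NMD3 were without overlap of the groups, and the changes were -2.20 ± 0.72 for SBDS, -1.61 ± 0.65 for NMD3 and -1.89 ± 0.79 for NOP58. limma called 0 of the list, with 0 higher and 6 lower at an unadjusted p under 0.05 (8.5% and 7.0% of all tested transcripts).

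Among 19 tested regulators of TOP mRNAs and of ribosome production, 4 were higher with linseed in each sheep and 9 lower. Over all tested transcripts these shares were 23.0% and 26.2%. The median change of the list was -0.92 at a median transcript length of 1709 nt. EIF4E, the cap-binding protein, had 1.48, 1.19 and 19.2 RPKM with linseed, against 26.5, 17.9 and 70.2 RPKM on the control diet. EIF4G1, the scaffold that EIF4E binds, had 1.30, 0.741 and 5.58 RPKM with linseed, against 9.66, 10.6 and 26.5 RPKM on the control diet. LAMTOR2, part of the Ragulator complex that holds mTORC1 at the lysosome, had 244, 168 and 136 RPKM with linseed, against 24.1, 85.1 and 32.0 RPKM on the control diet. With the sheep as a block, EIF4E fell by 2.80 on the log2 scale (adjusted p = 0.0427 with limma), and EIF4G1 fell by 2.34 (adjusted p = 0.0441). So did the GTPase RRAGC, which recruits mTORC1 to the lysosome, by 2.55 (adjusted p = 0.0441 with limma), and the kinase RPS6KA3 by 2.07 (adjusted p = 0.0448 with limma). With the block, 1.34% of all tested transcripts were called lower and 1.28% higher. The calls of these 4 genes ended when transcript length was corrected in the blocked fit, which called 0 of 15891 transcripts (smallest adjusted p = 0.0672 with limma). Without the block limma called 0 of the list (adjusted p = 0.263 for each of these 4). At an unadjusted p under 0.05 with limma, 3 were higher and 5 lower (8.5% and 7.0% of all tested transcripts). LAMTOR2 changed by 2.10 ± 0.66 and was called in neither fit.

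Genes of the response to free ribosomal proteins, the p53 and importin branch, were a list of 9 tested genes. Its median change was -0.58 at a median transcript length of 2877 nt, and the part of length in this was not tested. Of these, 0 were higher with linseed in each sheep and 5 lower (23.0% and 26.2% of all tested transcripts). IPO7, an import receptor of ribosomal proteins, fell by 2.44 with the sheep as a block (adjusted p = 0.0441 with limma) and was not called without it (0.263) or with the length correction. With the block, 1.34% of all tested transcripts were called lower and 1.28% higher. Proteins of the mitochondrial ribosome, a separate ribosome with its own protein set, numbered 54 tested genes. Of the mitochondrial set, 21 were higher in each sheep and 4 lower (23.0% and 26.2% of all tested transcripts). Their median change was 0.23 at a median length of 1062 nt. In that list, MRPL52 rose by 2.71 (adjusted p = 0.0441 with limma) and MRPS25 by 2.42 (0.0444 with limma) with the sheep as a block, and neither was called without it or with the length correction. The cytosolic set stood at 0.98, and the difference between the sets was not tested.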

How the data were processed

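RNA of milk somatic cells was sequenced in 6 libraries (TruSeq RNA kit, HiSeq2000). The authors deposited 1 table of RPKM values for 49705 transcripts; the submitters' processing notes name Trimmomatic 0.33. The aligner, build and counting tool were not given in the sources used here. Groups follow the letter of a title, and same-numbered libraries come from the same ewe (their deviations from the group means correlated at 0.18, 0.25 and 0.40; linseed sheep 2 with control sheep 1 gave 0.24, so the pairing rests on the labels).

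Symbols came from RefSeq (ARS-UI_Ramb_v3.0, names only, accession version ignored), with 15836 transcripts (31.9%) matched. Library totals, lengths and reads were solved from the steps of low RPKM values to within 0.002 reads. Recovered reads came to between 99.42% and 99.82% of the totals. The length taken was the smallest that gave whole reads. For transcripts with very few reads, length and reads may therefore be too low by a whole factor.

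limma 3.58.1 in R 4.3.3 compared log2(RPKM + 1), with a mean-variance trend, over the 15891 transcripts that averaged 1 RPKM or more, adjusted over them all. This scale understates changes of low transcripts. The fit without a block is printed unless the block is named. Scripts were tested on simulated data. The members and lists were chosen with earlier results of these data known. Genes named were the 12 of smallest p, the 4 of highest and of lowest change, the 5 of highest and of lowest level, the stalk, a set of well-known proteins and the paralogs, plus the 3 of smallest p in 3 other lists and the list genes that the block called. Some of these are not reported here. Pseudocount, filter, scaling, block, length, transcript and left-out libraries were varied.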

Additional observations from a re-analysis of the deposited data

How the results depend on the processing

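Of 34 single genes and 5 summary values, most kept their direction. With the sheep as a replicate block 0 of 63 genes were called, as without it, so the block changed no call of a member on the deposited scale, and 18 genes had an unadjusted p under 0.05 against 20 without it. Under quantile normalization 23 genes were higher with linseed in each sheep and 8 lower, the median change was 0.20 and the share difference 2.79 points. The other counts of higher genes were 30 without milk proteins, 29 after the length correction, 35 when rescaled to equal sums and 37 with voom or median-of-ratios scaling. The count of lower genes was 0 under median-of-ratios scaling and voom, and 2 when rescaled to equal sums or corrected for length. Leaving out libraries or sheep gave counts of 41 to 58 higher and 1 to 2 lower in the remaining sheep, medians of 0.46 to 1.39 and share differences of 3.00 to 8.40 points. The 1 call (RPL23) came with scaling to the ribosomal proteins and a replicate block. The cause of these shifts was not tested.

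Small changes turned sign. Under quantile normalization RPL27A was at -0.76, RPL3 at -0.25, RPL6 at -0.58, RPL7 at -0.37, RPL7L1 at -0.0090, RPS27 at -0.68, RPS27A at -0.27 and RPS29 at -0.12. With milk proteins left out, with or without a replicate block, RPL26L1 was at -0.017, RPL27A at -0.27, RPL6 at -0.29, RPL7L1 at -0.13 and RPS27 at -0.12. Rescaled to equal sums, RPL27A was at -0.20, RPL6 at -0.22, RPL7L1 at -0.052 and RPS27 at -0.052. After the length correction, with or without a replicate block, RPL26L1 was at -0.051, RPL27A at -0.37, RPL6 at -0.29 and RPS27 at -0.28. With voom RPL6 was at -0.0011 and RPS3A at -0.26, and under median-of-ratios scaling RPS27L was at 0.037. Over libraries left out, RPL27A ran from -0.34 to 0.47, RPL6 from -0.32 to 0.61, RPL7L1 from -0.10 to 0.48, RPS27 from -0.32 to 0.68 and RPS27L from -0.12 to 0.19. The share was not recomputed for pseudocounts, the absent filter, median-of-ratios scaling, rescaling to equal sums or the length correction. The members with the fewest reads were RPS3A, RPS25, RPS26, RPL10L and RPL3L, at 0 to 27 reads a library as solved. RPL26L1 came next, at 33 to 314 reads, and the effect of depth was not tested.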

Other observations

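Where a ribosomal protein gene had several transcripts in the table, they did not always run together. For RPL34, the main transcript changed by 0.40 ± 0.65 and a second one (XM_004009632.2) by 1.20 ± 0.76, with 169, 415 and 160 RPKM in linseed libraries, against 46.9, 265 and 72.9 RPKM in control libraries, and it was higher in each sheep. For RPL6, the other transcripts changed by -0.53 ± 0.63 and 1.56 ± 0.74, beside 0.04 for the main one. RPL35A's second transcript (XM_012096212.1), at a mean of 26.0 RPKM, changed by -0.28 ± 0.66, and that of RPS21 (XM_004014418.2) by 0.58 ± 0.63, beside 1.21 ± 0.69 for its main one. RPL19's transcripts changed by 1.08 ± 0.64 and 0.83 ± 0.66. No source used here says how the authors divided reads between transcripts of a gene.

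Nuclear genes of oxidative phosphorylation, with a median length of 733 nt and a median level of 52.7 RPKM, had 24 of 52 tested members higher with linseed in each sheep and 2 lower, with a median change of 0.68. Of all tested transcripts, 23.0% were higher in each sheep, 26.2% were lower, and 1.28% were called higher with the sheep as a block. With the sheep as a block, NDUFS8 rose by 2.63 (adjusted p = 0.0461 with limma), and NDUFA13 by 2.44 (0.0496 with limma), both subunits of complex I, and neither was called without the block (0.263) or in the blocked fit with the length correction (smallest adjusted p of any transcript 0.0672 with limma).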
